A study of Arabidopsis thaliana with 6 samples.

Results

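The CAT genes of Arabidopsis thaliana encode the cationic amino acid transporters, a family of membrane carriers that is unrelated to the catalases of the same abbreviation. The 9 genes CAT1 to CAT9 were taken by their gene identifiers from a deposited table of 33602 genes, and all 9 were found. RNA had been sequenced from whole seedlings of the Columbia ecotype at 12 days. They grew on agar with 0.5% sucrose and nitrogen-free Murashige and Skoog salts at pH 5.7. Both groups shared 2 days of cold, days of 16 h light and 8 h dark, and a temperature of 22 °C. Seedlings of the glutamate group received 5 mM glutamate as their nitrogen source, and seedlings of the ammonium nitrate group received 5 mM ammonium nitrate. Each group had 3 libraries, and no mutant or transgene was involved. A molecule of ammonium nitrate carries more nitrogen than one of glutamate, so the plates held 5 mM of nitrogen as glutamate and 10 mM as ammonium nitrate, and its form and its amount cannot be told apart.

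CAT proteins belong to the amino acid, polyamine and choline superfamily, whose members move amino acids across membranes, in many cases together with protons. In plants they sit in the plasma membrane, where they take amino acids up from the cell wall space, or in the vacuolar membrane, where they exchange amino acids with the vacuole. The basic amino acids arginine, lysine and histidine are the best studied substrates, and arginine is a nitrogen-rich storage form. Some members also carry glutamate or neutral amino acids, so that the family's name does not describe every member. The labels give the series' purpose as finding glutamate-regulated genes, and the comparison asks which of these carriers differ in level when glutamate replaces ammonium nitrate.

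Levels are in RPKM, which scales the reads of a gene by its length and by the size of the library, and can therefore be set side by side between genes. The libraries held 49688724 to 63424574 reads on glutamate and 49520237 to 51409315 on ammonium nitrate, as recovered from the deposited values. A single read in a gene of 1 kb was worth 0.0152 to 0.0192 RPKM on glutamate and 0.0201 to 0.0211 RPKM on ammonium nitrate. No CAT gene had multiply mapped reads, as the deposited column was read here by its name. None overlaps another gene in the RefSeq annotation. Neither source gave a sign of reads shared with a neighbour or a close copy for these 9. Log2 fold changes compare log2(RPKM + 1), glutamate over ammonium nitrate, in limma fitted across the 20032 genes whose mean over the 6 libraries reached 1 RPKM. A gene was called at an adjusted p under 0.05 (Benjamini-Hochberg), two-sided. Plain ratios divide the mean RPKM on glutamate by that on ammonium nitrate. Nothing in the labels ties the libraries of a group to separate cultures. The p-values set the group difference against the spread between these libraries, which may be technical. For each gene limma draws that spread toward a trend over all tested genes.

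On glutamate CAT1, CAT5 and CAT4 rose, CAT6, CAT2 and CAT8 fell, CAT3 and CAT9 did not pass, and CAT7 was too low to be tested. The 3 members called higher and 3 called lower were of 8 tested. Over all tested genes 35.0% were called higher and 36.8% lower, so the counts for the family are near the background and are not a result about it. When libraries were scaled to equal totals, 4 members were called higher and 2 lower, and over all 20036 genes then tested 8452 were higher and 5989 lower. At least 2-fold on the log2 scale, CAT1 and CAT5 rose, where 9.52% of all tested genes did, and CAT6 fell, where 5.54% did. So few members are not a result about the family either, and CAT5 reached the mean of 1 RPKM only through the glutamate group. The 2 groups did not overlap for the 6 called members, with 3 above and 3 below on glutamate, where 36.9% of all tested genes lay wholly above and 39.2% wholly below. The median log2 fold change over the 8 tested members was -0.01 and that over all tested genes was -0.02.

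**Figure D1:**
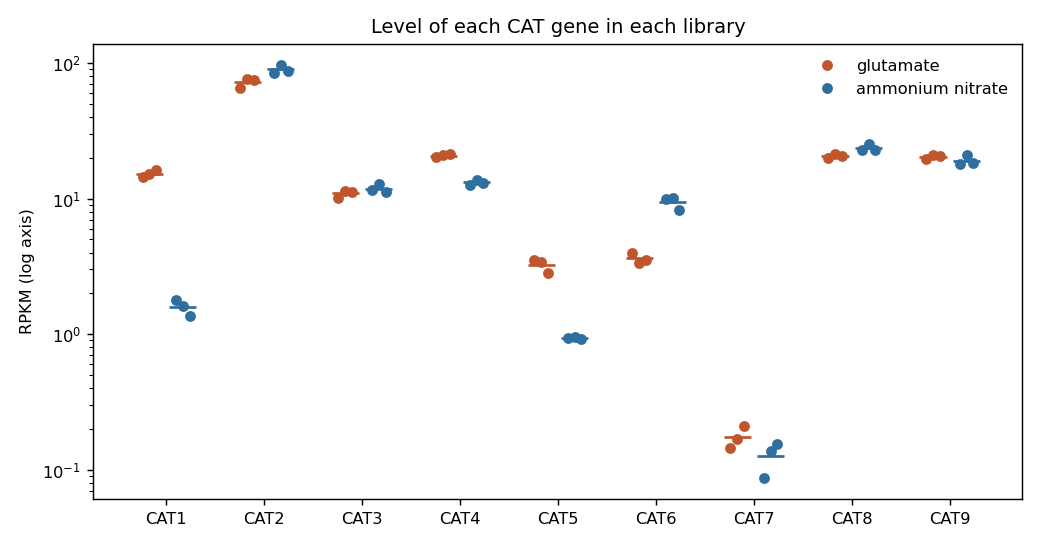
RPKM of each CAT gene on a log axis, with a point for each library and a line at the arithmetic mean of the 3 libraries, glutamate to the left of ammonium nitrate. CAT1 lies at 14.5 to 16.2 RPKM on glutamate and at 1.35 to 1.77 on ammonium nitrate, CAT2 is the most abundant in both groups, and CAT7 stays under 0.22 RPKM in every library.

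CAT1 and CAT5 are the members that the RefSeq annotation describes as mediating efficient uptake of lysine, arginine and glutamate when made in yeast cells, and both rose. With 35.0% of all tested genes called higher, 2 members are too few to be read as a result about this group. CAT1 (AT4G21120), also named AAT1, had 14.5, 15.1 and 16.2 RPKM on glutamate in replicates 1, 2 and 3, against 1.77, 1.62 and 1.35 RPKM on ammonium nitrate. Every glutamate library was far above every ammonium nitrate library, and the spread within each group was small beside the gap. The means were 15.3 ± 0.867 RPKM on glutamate and 1.58 ± 0.214 RPKM on ammonium nitrate (SD, n = 3 each), a ratio of 9.64, with a log2 fold change of 2.66 ± 0.08 (SE, limma adjusted p = 1.1e-07). Only 255 of the 20032 tested genes had a larger rise on that scale. In reads, CAT1 had 2009, 1770 and 2408 on glutamate and 197, 173 and 151 on ammonium nitrate.

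CAT5 (AT2G34960), which the annotation places in the plasma membrane, also rose, at a lower level. It had 3.50, 3.42 and 2.83 RPKM on glutamate, against 0.941, 0.959 and 0.914 RPKM on ammonium nitrate. The 3 ammonium nitrate libraries were nearly equal, and the lowest glutamate library, replicate 3, was still well above them. The ratio of means was 3.47, and the log2 fold change was 1.13 ± 0.09 (SE, limma adjusted p = 1.2e-05). CAT5 passed the filter on level only through the glutamate group, since its mean on ammonium nitrate, 0.938 RPKM, was under 1, so it could be tested only because it was higher there. Its log2 fold change was 1.69 with 0.1 RPKM added and 0.47 with 5 RPKM added, and that of CAT1 was 3.20 and 1.62 with the same additions. With CAT1 and CAT5 summed, both carriers together stood at 18.5 ± 0.520 RPKM on glutamate and 2.52 ± 0.231 RPKM on ammonium nitrate, a ratio of 7.34. CAT1 alone gave 15.3 RPKM of that sum on glutamate, so the ratio mostly reflects CAT1.

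CAT3, CAT6 and CAT8 form a second group in the annotation, as carriers that do not take up basic amino acids efficiently in yeast or Xenopus oocytes but can move analogs of neutral and acidic amino acids. None of them was called higher, where 35.0% of all tested genes were, and 3 members are too few to be read as a result about this group. CAT6 (AT5G04770), a plasma membrane carrier of sink tissues that is induced in roots by root-knot nematodes, had 3.99, 3.34 and 3.52 RPKM on glutamate, against 10.01, 10.1 and 8.29 RPKM on ammonium nitrate. The groups lay far apart, with every ammonium nitrate library above every glutamate library by more than the spread within either group. CAT6 averaged 3.62 ± 0.339 RPKM on glutamate and 9.45 ± 1.01 RPKM on ammonium nitrate (SD, n = 3 each), so the level on glutamate was lower by a ratio of 0.383. The log2 fold change was -1.18 ± 0.09 (SE, limma adjusted p = 9.7e-06), and 670 tested genes had a larger fall.

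CAT8 (AT1G17120) had 19.9, 21.5 and 20.6 RPKM on glutamate, against 22.7, 25.5 and 22.9 RPKM on ammonium nitrate. The groups did not overlap, but the gap between the highest glutamate and the lowest ammonium nitrate library was narrower than the range of the glutamate group. The fall was small, with a log2 fold change of -0.19 ± 0.06 (SE, limma adjusted p = 0.022). The call was lost when libraries were scaled to equal totals (-0.08, adjusted p = 0.27), and also without glutamate replicate 1 (-0.16, adjusted p = 0.074), without glutamate replicate 3 (-0.18, adjusted p = 0.06) or without ammonium nitrate replicate 2 (-0.14, adjusted p = 0.059). CAT3 (AT5G36940) had 10.05, 11.4 and 11.3 RPKM on glutamate and 11.5, 12.8 and 11.2 RPKM on ammonium nitrate, with overlapping groups. Its log2 fold change was -0.11, with a 95% interval of -0.28 to 0.06 (limma adjusted p = 0.21), so a fall larger than that lower bound lies outside the interval. Summed, the 3 carriers stood at 35.2 ± 1.15 RPKM on glutamate and 45.0 ± 3.05 RPKM on ammonium nitrate, a ratio of 0.782.

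The annotation names no substrate for CAT2, CAT4, CAT7 and CAT9. Summed, these 4 stood at 113 ± 6.95 RPKM on glutamate and 122 ± 8.89 RPKM on ammonium nitrate, a ratio of 0.930, with CAT2 as the largest part. CAT2 (AT1G58030), a carrier of the vacuolar membrane, was the most abundant member in both groups, with 65.5, 76.3 and 74.4 RPKM on glutamate, against 84.3, 97.3 and 87.3 RPKM on ammonium nitrate. All 3 glutamate libraries were below all 3 ammonium nitrate libraries. The fall was modest beside the spread, with a ratio of 0.804 and a log2 fold change of -0.31 ± 0.08 (SE, limma adjusted p = 0.006). With equal totals per library it was -0.20 (adjusted p = 0.044). As a difference in level it was the largest of the family in the deposited scaling, at -17.6 RPKM, beside 13.7 RPKM for CAT1. That order depended on the scaling. With equal totals per library CAT2 had 75.0 RPKM on glutamate and 86.2 on ammonium nitrate. CAT1 then had 15.9 RPKM on glutamate and 1.52 on ammonium nitrate, the larger difference.

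CAT4 (AT3G03720) was the third member to rise, with 20.2, 20.8 and 21.2 RPKM on glutamate, against 12.7, 13.7 and 13.1 RPKM on ammonium nitrate. Both groups were tight and lay well apart. The means were 20.7 ± 0.522 RPKM on glutamate and 13.2 ± 0.531 RPKM on ammonium nitrate (SD, n = 3 each), a ratio of 1.57, with a log2 fold change of 0.62 ± 0.05 (SE, limma adjusted p = 1.4e-05). CAT9 (AT1G05940) had 19.6, 20.8 and 20.7 RPKM on glutamate and 18.0, 20.8 and 18.2 RPKM on ammonium nitrate. Ammonium nitrate replicate 2 lay among the glutamate libraries, so the groups overlapped. The log2 fold change was 0.10, with a 95% interval of -0.05 to 0.25 (limma adjusted p = 0.21). CAT9 was called higher when libraries were scaled to equal totals (0.20, adjusted p = 0.022) and also without ammonium nitrate replicate 2 (0.16, adjusted p = 0.031).

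CAT7 (AT3G10600) was detected in all libraries at a trace level and was left out of the test by the filter on level. It had 15, 15 and 24 reads on glutamate and 7, 11 and 13 reads on ammonium nitrate, or 0.144 to 0.212 RPKM on glutamate and 0.0865 to 0.155 RPKM on ammonium nitrate. Its groups overlapped. With no filter on level its log2 fold change was 0.06, with a 95% interval of -0.03 to 0.15 (limma adjusted p = 0.19 over 26260 genes), a scale on which an added 1 RPKM hides most of any change at this level. No fit with less than 1 RPKM added covered CAT7, so whether it differed was not decided. The reads were not shown to be independent molecules, so counts this small carry at least their counting error.

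**Figure D2:**
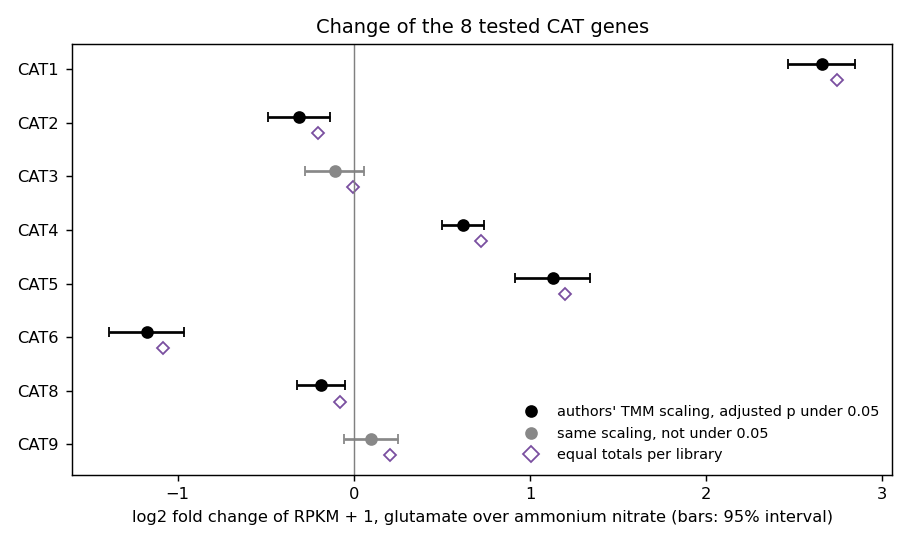
Log2 fold change of RPKM + 1, glutamate over ammonium nitrate, for the 8 tested CAT genes, with 95% intervals from limma as bars and the value with equal totals per library as diamonds. CAT1 stands apart at 2.66, CAT5 at 1.13 and CAT4 at 0.62 lie to the right of 0, CAT6 lies to the left at -1.18, and the diamonds keep the side of every circle.

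The order of the levels differed between the nitrogen sources. On glutamate it ran CAT2, CAT4, CAT8, CAT9, CAT1, CAT3, CAT6, CAT5 and CAT7. Within it CAT4, CAT8 and CAT9 could not be told apart, at means of 20.7, 20.7 and 20.4 RPKM with overlapping ranges, and neither could CAT6 and CAT5, at 3.62 and 3.25 RPKM. On ammonium nitrate the order was CAT2, CAT8, CAT9, CAT4, CAT3, CAT6, CAT1, CAT5 and CAT7, and among neighbours the ranges overlapped for CAT4 and CAT3, at means of 13.2 and 11.8 RPKM. CAT1 was above CAT6 and CAT3 in 3 of 3 glutamate libraries and below both in 3 of 3 ammonium nitrate libraries. Among all genes of the table, CAT1 was at the percentile 72.7 of mean level on glutamate and 44.4 on ammonium nitrate, and CAT2 was at 94.0 on glutamate and 95.3 on ammonium nitrate.

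Summed over the 9 genes, the level was 167 ± 8.46 RPKM on glutamate and 169 ± 11.7 RPKM on ammonium nitrate (SD, n = 3 each). The libraries ranged from 157 to 173 RPKM on glutamate and from 162 to 183 RPKM on ammonium nitrate, so the sums overlapped while the makeup differed. CAT2 gave 43.1% ± 1.32 of the sum on glutamate and 52.9% ± 0.734 on ammonium nitrate. CAT1 gave 9.14% ± 0.393 on glutamate and 0.936% ± 0.141 on ammonium nitrate, and CAT4 gave 12.4% ± 0.381 on glutamate and 7.78% ± 0.258 on ammonium nitrate. The share of CAT6 was 2.18% ± 0.321 on glutamate and 5.59% ± 0.558 on ammonium nitrate. The shares of CAT9 and CAT3 were closer, with 12.2% on glutamate and 11.2% on ammonium nitrate for CAT9, and 6.53% on glutamate and 6.99% on ammonium nitrate for CAT3.

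**Figure D3:**
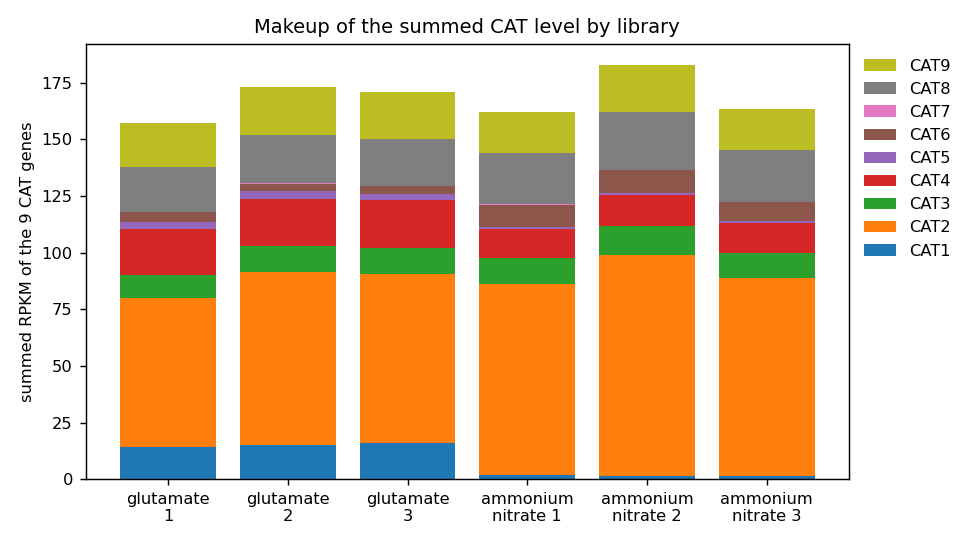
Summed RPKM of the 9 CAT genes in each library, stacked by gene, the 3 glutamate libraries to the left of the 3 ammonium nitrate libraries. The bars end between 157 and 173 RPKM on glutamate and between 162 and 183 RPKM on ammonium nitrate, while the CAT1 segment at the foot is visible mainly on glutamate.

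Members that rose and members that fell were found among genes of like structure. In the RefSeq annotation CAT5 and CAT8 have 1 exon, CAT1 has 3, and CAT6 and CAT7 have 3 to 4. CAT9 has 7 to 8 exons, and CAT2, CAT3 and CAT4 have 14 to 15. The single-exon genes CAT5 and CAT8 differed in direction, as did the many-exon genes CAT4 and CAT2. The fall of CAT8 was small, and its call was lost when libraries were scaled to equal totals. The 9 genes lie on chromosomes 1 to 5, with CAT2, CAT8 and CAT9 on chromosome 1, and the longest proteins they encode have 569 to 635 residues.

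Seedlings were taken whole, so the levels mix root and shoot, and fewer cells of a type cannot be told apart from less RNA per cell. Markers of both organs were present, and their counts stand against the 35.0% of all tested genes called higher and 36.8% called lower. All 9 leaf markers fell, with log2 fold changes from -1.67 to -0.50. Their summed level was 11020 to 12467 RPKM on glutamate and 22216 to 23620 on ammonium nitrate. That sum is mostly RBCS1A, at means of 7644 RPKM on glutamate and 14599 on ammonium nitrate. Of 12 root markers, such as CASP1 of the endodermis and COBL9 of root hairs, 8 rose, PYK10 and SCR fell and 2 did not pass. Their sum, which is mostly PYK10, was 1722 to 1859 RPKM on glutamate and 2282 to 2747 on ammonium nitrate. Of 4 phloem markers 1 rose and 2 fell. The part of such organ markers in the changes of the CAT genes was not tested.

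The nearest relatives in the same superfamily, the LAT-type polyamine carriers and the bidirectional amino acid carrier BAT1, had smaller log2 fold changes than CAT1. The median log2 fold change of these 6 genes was 0.20, with 3 called higher and 1 called lower. Against 35.0% higher and 36.8% lower over all tested genes, counts this small are not a result about these relatives. PUT4 (AT3G13620) had 5.42 ± 0.291 RPKM on glutamate and 3.16 ± 0.484 RPKM on ammonium nitrate. PUT1 (AT1G31820) had 12.7 ± 1.68 RPKM on glutamate and 8.58 ± 0.206 RPKM on ammonium nitrate. PUT5 (AT3G19553) had 38.2 ± 1.53 RPKM on glutamate and 29.96 ± 1.40 RPKM on ammonium nitrate. RMV1 (AT5G05630), also named PUT3, through which the herbicide paraquat enters cells, fell to 0.808 ± 0.106 RPKM on glutamate, against 1.63 ± 0.204 RPKM on ammonium nitrate, and passed the filter on level only through the ammonium nitrate group. PUT2 (AT1G31830) was at 19.5 RPKM on glutamate and 18.7 RPKM on ammonium nitrate (limma adjusted p = 0.43). BAT1 (AT2G01170), which carries arginine, lysine and glutamate in both directions, was at 23.8 ± 0.643 RPKM on glutamate and 25.01 ± 0.898 RPKM on ammonium nitrate (limma adjusted p = 0.23).

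Among 5 carriers of other families that move basic amino acids, the median log2 fold change was 0.87, and 3 rose while 2 fell, beside the same shares of 35.0% and 36.8% over all tested genes. The counts are too few to be read as a result about these carriers, which are described one by one. LHT1 (AT5G40780), a proton-coupled uptake carrier of root and leaf, had 205 ± 8.51 RPKM on glutamate and 14.7 ± 0.708 RPKM on ammonium nitrate, a larger ratio, 13.9, than that of CAT1. AAP3 (AT1G77380), a permease with affinity for basic amino acids, had 17.9 ± 0.287 RPKM on glutamate and 9.34 ± 0.322 RPKM on ammonium nitrate. AAP5 (AT1G44100), its close relative, fell to 15.2 ± 0.123 RPKM on glutamate, against 19.4 ± 1.02 RPKM on ammonium nitrate. The mitochondrial carriers of basic amino acids went opposite ways: BAC2 (AT1G79900) had 2.44 ± 0.0919 RPKM on glutamate and 0.714 ± 0.360 RPKM on ammonium nitrate, and passed the filter on level only through glutamate, whereas BAC1 (AT2G33820) had 9.40 ± 0.0696 RPKM on glutamate and 15.5 ± 1.52 RPKM on ammonium nitrate. All 5 had an adjusted p under 0.05 in limma.

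Genes that make the basic amino acids were mostly lower on glutamate, where 36.8% of all tested genes were called lower and 35.0% higher. Of 13 genes of arginine synthesis 11 fell and 1 rose, and the median log2 fold change was -0.51. CARB (AT1G29900), the large subunit of carbamoyl phosphate synthetase, had the largest fall, to 25.8 ± 1.15 RPKM on glutamate, against 46.1 ± 2.65 RPKM on ammonium nitrate. NAOD (AT4G17830), listed as the deacetylase that releases ornithine, was the exception that rose, at 33.5 ± 0.287 RPKM on glutamate and 19.6 ± 1.20 RPKM on ammonium nitrate. All 14 genes of lysine synthesis fell, with a median of -0.61, and AK3 (AT3G02020), an aspartate kinase, fell most, to 7.93 ± 1.70 RPKM on glutamate, against 18.5 ± 2.12 RPKM on ammonium nitrate. Of 10 tested genes of histidine synthesis 9 fell and 1 rose, with a median of -0.49. HISN6A, one of those that fell, has a largest share of multiply mapped reads of 0.40 and is uncertain. HISN1A (AT1G58080), of the first step, was at 23.0 ± 1.28 RPKM on glutamate and 63.1 ± 1.71 RPKM on ammonium nitrate, and HISN5A (AT3G22425) rose, at 24.0 ± 1.58 RPKM on glutamate and 12.5 ± 1.21 RPKM on ammonium nitrate. These falls, in enzymes that work largely in the plastid, stood beside the fall of all 9 leaf markers, whose median was -0.98. The part of the leaf markers in them was not tested.

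Genes that use the basic amino acids were called about as often in each direction as all tested genes, of which 35.0% were higher and 36.8% lower, so their counts are not a result about them. Of 17 genes of arginine breakdown and polyamine synthesis 6 rose and 7 fell, and the median log2 fold change was -0.06. When libraries were scaled to equal totals 3 of them were called lower. ADC2 (AT4G34710), an arginine decarboxylase, fell to 60.4 ± 1.87 RPKM on glutamate, against 313 ± 30.5 RPKM on ammonium nitrate, and SPMS (AT5G53120), of spermine synthesis, rose to 36.8 ± 1.95 RPKM on glutamate, against 11.5 ± 0.889 RPKM on ammonium nitrate. The S-adenosylmethionine decarboxylase genes AT3G02470, AT5G15950 and AT3G25570 have a largest share of multiply mapped reads at or near 1. Their calls in this list are therefore uncertain. Of 5 tested genes of lysine breakdown 2 rose, 1 fell and 2 did not pass. FMO1 (AT1G19250), which makes the defence signal N-hydroxypipecolic acid from a product of lysine, had 15.6 ± 1.46 RPKM on glutamate and 2.96 ± 0.747 RPKM on ammonium nitrate. PIPOX (AT2G24580), listed as a pipecolate oxidase, fell to 22.0 ± 0.534 RPKM on glutamate, against 38.1 ± 3.04 RPKM on ammonium nitrate.

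**Figure D4:**
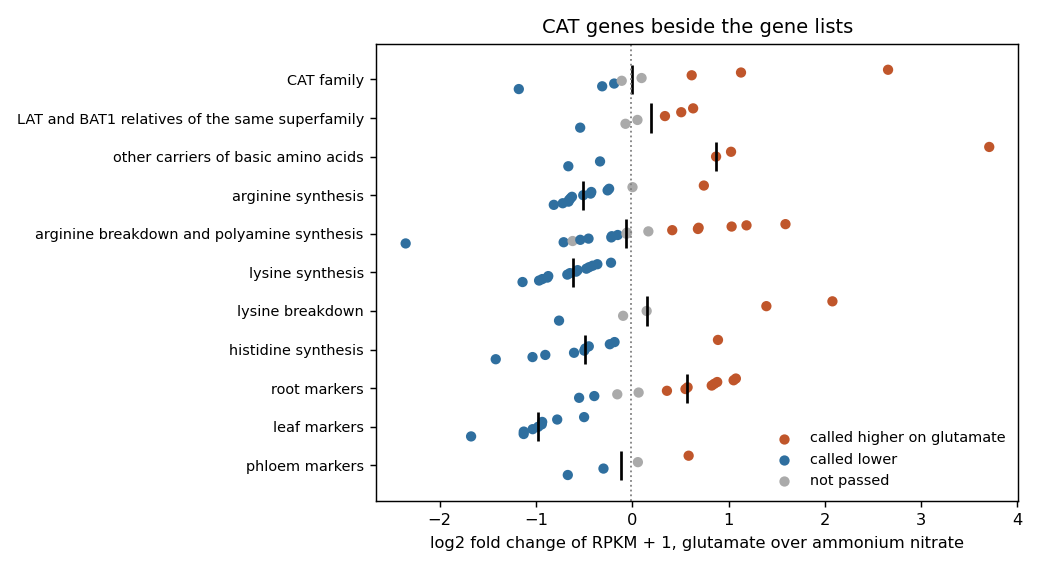
Log2 fold change of RPKM + 1, glutamate over ammonium nitrate, for each tested gene of the CAT family, of the 7 lists of related genes and of the 3 marker lists, with the median of each list as a black bar and the median of all tested genes, -0.02, as a dotted line. The CAT genes spread on both sides of 0 from -1.18 to 2.66, while all 14 genes of lysine synthesis lie to the left.

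Likeness of pattern was measured as Pearson's r of log2(RPKM + 1) over the 6 libraries, between each CAT gene that was called with at least a 2-fold change and the 70 tested genes of the lists other than the markers. With 2 groups the value mostly reflects the gap between them: 4217 of all tested genes outside the family reached an r of 0.95 with CAT1, 3990 with CAT5 and 3898 with CAT6. Nearest to CAT1 were AAP3, NAOD and LHT1, each at an r of 0.997. Nearest to CAT5 were AAP3 at 0.994, LHT1 at 0.991 and AIH (AT5G08170), the agmatine iminohydrolase of putrescine synthesis, at 0.990. Nearest to CAT6 were SPDS2 (AT1G70310), a spermidine synthase, and DAPDC2 (AT5G11880), of the last step of lysine synthesis, both at 0.994, and HISN5B (AT4G14910) at 0.991. The points share their libraries, and r is given as a description.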

How the data were processed

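Whole seedlings on glutamate or ammonium nitrate were sequenced, 3 libraries per group, after Trizol extraction and the Illumina TruSeq RNA kit, per the labels' protocols. The authors deposited RPKM values whose file name states TMM scaling, with a length and a fraction of multiply mapped reads for each gene, as deposited under a column of that name. The build TAIR10 and the tool SAMtools appear in the submitters' processing notes. For the aligner, the counter and the use of strand, nothing is given in the sources used here.

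RPKM times length took steps of whole reads with 0.5 read added, within 0.05 read for 96.0% to 96.5% of genes, which gave the library totals. limma 3.58.1 in R 4.3.3 was fitted to log2(RPKM + 1) with an intensity trend over the 20032 genes whose mean reached 1 RPKM, without a replicate block. The fit was also run on simulated reads with known changes in a small set of genes. Most genes tested here were called, so that run is no check of the calls under such wide change. The alternatives were other pseudocounts, other filters, equal totals per library, a replicate block, no trend and each library left out.

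The members and lists were chosen with earlier results of these data known. Named genes were the 9 CAT genes, all genes of both carrier lists, the largest rise and fall of each other list among called genes that averaged 5 RPKM or more in the higher group, with no overlap, and the 3 genes of the lists most like each member called with at least a 2-fold change. Names and gene structures came from RefSeq's TAIR10.1 annotation, which matched all 106 listed genes; that release follows the authors' one, so no coordinates or sequences are given.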

Additional observations from a re-analysis of the deposited data

How the results depend on the processing

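The counts of 3 CAT genes called higher and 3 called lower ranged over the alternatives from 2 to 4 and from 2 to 3. CAT1, CAT2, CAT4, CAT5 and CAT6 kept their direction and their call in each alternative that tested them; CAT5 was not tested where the filter was 5 RPKM. Equal totals per library moved the log2 fold change of the median tested gene up by 0.10; there 3 genes of arginine breakdown and polyamine synthesis were lower, against 7, and BAT1 turned to 0.038, against -0.07. With the filter at 5 RPKM, 0 of the LAT and BAT1 genes were lower, since RMV1 was no longer tested. Leaving out 1 library in turn, PUT2 ranged from -0.00011 to 0.0898 and was not called; it was called higher with equal totals (0.16, adjusted p = 0.046). The replicate numbers are shared by the groups, but no label ties them to a batch; same-numbered libraries had correlations of deviations of 0.105, 0.0481 and -0.0125. With the replicate block the CAT counts stayed at 3 higher and 3 lower, and over all genes 6929 were higher and 7265 lower, against 7013 and 7377. Depth limits CAT7.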
